A study of Caenorhabditis elegans with 6 samples.

Results

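PUF proteins are RNA-binding proteins named after Pumilio of the fruit fly and FBF of Caenorhabditis elegans. The 8 genes puf-3, puf-5, puf-6, puf-7, puf-8, puf-9, puf-11 and puf-12 were taken by name, with every array probe whose sequence name belongs to one of them. Of these 8 genes, 7 had a probe and 6 were among the 15512 genes tested, out of 19441 genes with a probe on the array. The 2 other family members, fbf-1 and fbf-2, and 2 PUF pseudogenes are given for comparison.

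Messenger RNA was measured in young-adult worms of the wild-type strain N2 and in young adults carrying the n4759 allele of the microRNA gene mir-243. The array experiment asked which transcripts change when miR-243, a microRNA bound by the Argonaute protein RDE-1, is missing. There were 3 biological replicates of each genotype. In each replicate, mutant and wild-type cDNA competed on 2 Agilent arrays of the whole genome, with the dyes Cy3 and Cy5 exchanged between them, which gave 6 arrays. RNA came from whole worms, so that fewer cells of a type and less RNA per cell cannot be told apart in any value below. The mutant is a single allele, and the level of miR-243 itself was not analysed here.

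PUF proteins bind short elements that begin with UGU in the 3′ untranslated regions of their target mRNAs, with each repeat of the protein contacting one base. On most known targets they lower translation or mRNA stability, often by bringing in the CCR4-NOT deadenylase, which shortens the poly(A) tail. In C. elegans the family is best known from the germ line, where FBF-1 and FBF-2 keep stem cells dividing, PUF-8 acts in mitotic germ cells and in spermatocytes, and PUF-3, PUF-5, PUF-6, PUF-7 and PUF-11 act in oocytes and early embryos. PUF-9 works in the hypodermis at the larval-to-adult transition. The relatives of PUF-12 in yeast and human, Puf6 and PUM3, are nucleolar proteins.

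The replicates were close to each other. Pearson's r between replicate log2 ratios across tested probes, which are not independent, was between 0.987 and 0.990. The median log2 ratio over all tested probes was -0.01, a value that the loess normalisation of each array sets near 0. Replicates 1 and 2 were on 1 slide and replicate 3 was on another. All 8 member probes exceeded the background clearly (by the scanner's own mark) in mutant and wild type on 6 of 6 arrays, and 0 of their 96 spots were saturated, whereas 12 carried an outlier mark and were left out.

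Transcripts of puf-3, puf-7, puf-8 and puf-11 were lower in mir-243 mutant worms than in wild type, whereas puf-9 and puf-12 stayed within 1.095-fold. Ratios are log2 of mutant over wild type, averaged over both dye orientations of a replicate, so -1 is a 2-fold lower signal. A probe was called when its adjusted p (limma, two-sided, Benjamini-Hochberg over 16272 tested probes) was under 0.05 and its fold was at least 2. Of the 7 tested member probes, 5 probes of 4 genes (puf-3, puf-7, puf-8 and puf-11) were called lower, compared with 7.1% of all tested probes. With limma 0 member probes were called higher, compared with 9.17% of all probes, and the 1 higher member probe with an unadjusted p under 0.05 was that of puf-12. By the adjusted p alone, 5 member probes were lower and 1 was higher, that of puf-12, whose sign turned with median centring. That criterion separates little on these arrays, since it was met by 41.3% of all probes on the lower side and by 42.3% on the higher side. The median ratio of the 7 member probes was -1.51.

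**Figure D1:**
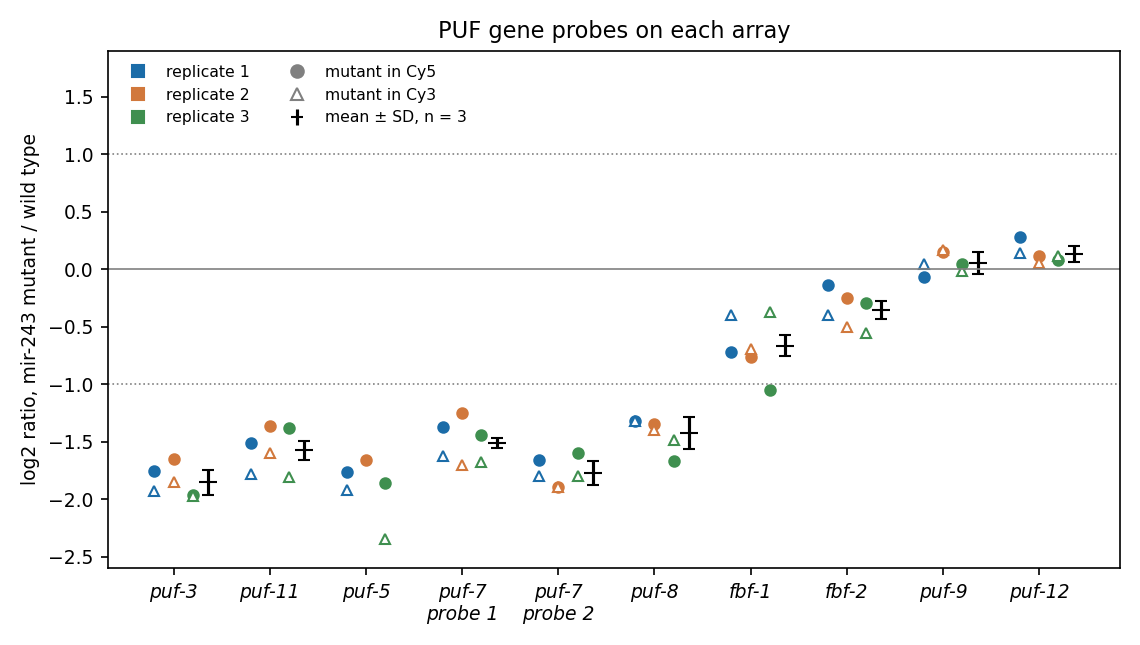
Log2 ratio of mutant over wild type (vertical axis) for each PUF probe (horizontal axis) on each array, with replicates by colour, dye orientation by symbol, and the mean and SD of the 3 replicates in black for tested probes. All arrays of puf-3, puf-11, puf-7 and puf-8 lie below the dotted line at -1, fbf-1 and fbf-2 lie between it and 0 on all arrays but 1, and puf-9 and puf-12 lie near 0.

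PUF-3 and PUF-11 are closely related proteins of oocytes and embryos. The probe of puf-3 (sequence name Y45F10A.2.1, probe A_12_P102324) gave log2 ratios of -1.84, -1.75 and -1.97 in replicates 1, 2 and 3. The mean was -1.85 ± 0.109 (SD, n = 3), which is 3.61-fold lower in the mutant (95% confidence interval 3.36 to 3.89, adjusted p = 6.83e-13). Its normalised log2 signal was 15.8, 15.5 and 15.6 in wild type and 14.0, 13.7 and 13.6 in the mutant, so the genotypes did not overlap. Such separation was common. Of the family probes with signals in all 3 replicates, all but that of puf-9 showed it, including fbf-1, fbf-2 and puf-12. Even the pseudogene probe of puf-4, not well above background on any array, showed it. Its normalised log2 signal was 6.09 to 6.22 in the mutant and 6.28 to 6.37 in wild type. Separation alone is therefore weak evidence of a change, here and below. The share over all probes on the array was not counted.

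The same separation was seen in the uncorrected spot intensities within 1 dye. Uncorrected intensities, here and below, are means over all spots of a probe, including spots left out of the ratios. On several arrays the puf-3 ratio rested on 1 spot. In Cy5, the puf-3 probe read between 57292 and 70856 intensity units in the wild-type samples and between 22401 and 27566 in the mutant samples. In Cy3 it read between 36937 and 49680 in wild type and between 7748 and 10990 in the mutant. Of all tested probes, 162 (0.996%) had a ratio as low as that of puf-3 or lower.

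The probe of puf-11 (Y73B6BL.38, A_12_P111329) gave -1.65, -1.48 and -1.59. The mean was -1.57 ± 0.0837 (SD, n = 3), or 2.98-fold lower (interval 2.78 to 3.19, adjusted p = 1.93e-12). Its normalised log2 signal lay between 14.1 and 14.3 in wild type and between 12.6 and 12.7 in the mutant, again without overlap. Its ratio differed with dye orientation, with a mean of -1.42 when the mutant was in Cy5 and -1.73 when it was in Cy3, and both were beyond 2-fold on all 3 arrays.

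PUF-5, PUF-6 and PUF-7 act in late oogenesis, and PUF-6 and PUF-7 are near-identical proteins. No probe carried the sequence name of puf-6, and puf-6 was not analysed here. Both probes of puf-7 (B0273.2) were called lower. The first (A_12_P106441) gave -1.50, -1.48 and -1.56 (mean -1.51 ± 0.0411, SD, n = 3, adjusted p = 1.45e-12), which is 2.85-fold lower. The second (A_12_P114356) gave -1.73, -1.89 and -1.70 (mean -1.77 ± 0.106, SD, n = 3, adjusted p = 9.88e-13), or 3.42-fold lower.

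The ratios of the 2 puf-7 probes differed by 0.26 ± 0.141 (SD, n = 3) in the same order on 6 of 6 arrays. An exact sign-flip permutation test gave p = 0.25, which is the smallest that 3 replicates allow. The first probe also moved with the dyes, from -1.35 with the mutant in Cy5 to -1.67 with it in Cy3, and the second from -1.72 to -1.83. Probe sequences were not used here, so whether either probe also reports puf-6 RNA was not tested, and the puf-7 values are uncertain to that extent.

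The probe of puf-5 (F54C9.8, A_12_P113057) was not tested, because both of its spots were marked as non-uniform in Cy5 on the replicate 2 array with the mutant in Cy3. On the 5 arrays with an unmarked spot its log2 ratio was -1.77 and -1.92 in replicate 1, -1.66 in replicate 2, and -1.86 and -2.35 in replicate 3. All of these are beyond 2-fold lower. The means of replicates 1 and 3, which have both orientations, were -1.85 and -2.11. A fit on the replicates with a value gave -1.98 for puf-5, from n = 2 replicates, a choice made after its marks were seen (limma adjusted p = 7.04e-12 over 16696 probes, called). With marked spots kept, its 3 replicates gave -1.95, -1.93 and -2.11, with a mean of -1.996 ± 0.0964 (SD, n = 3), and it was called lower (limma adjusted p = 1.35e-12), as were 7.32% of all probes in that fit.

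PUF-8 is a germ-cell protein closer in sequence to Pumilio than to FBF, required for germ cell proliferation and for primary spermatocytes to complete meiosis. Its probe (C30G12.7, A_12_P113066) gave log2 ratios of -1.32, -1.37 and -1.58. The mean was -1.42 ± 0.137 (SD, n = 3), or 2.68-fold lower (interval 2.48 to 2.90, adjusted p = 1.89e-11). Normalised log2 signals were 9.22, 9.58 and 9.52 in wild type and 7.90, 8.21 and 7.94 in the mutant. The genotypes did not overlap. In contrast to puf-11 and the first puf-7 probe, its ratio was alike in both orientations, at -1.45 with the mutant in Cy5 and -1.40 with it in Cy3.

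The signal of puf-8 was dim (214 to 617.5 units in Cy3 over a background of 60.3 to 63.8), and its ratio moved more with the background treatment than that of the bright puf-3 probe. It was -1.26 with no background correction and -1.76 with the scanner's processed signals, compared with -1.86 and -1.91 for puf-3. The call held in each case.

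FBF-1 and FBF-2 are near-identical regulators of germline stem cells and of the switch from sperm to oocytes, and were lower by less than 2-fold. The log2 ratio of fbf-1 (H12I13.4) was -0.67 ± 0.0911 (SD, n = 3, adjusted p = 1.33e-08), or 1.59-fold lower. That of fbf-2 (F21H12.5) was -0.36 ± 0.0806 (SD, n = 3, adjusted p = 7.42e-06), or 1.28-fold lower. Both had the same sign on 6 of 6 arrays and neither was called. The ratio of fbf-1 was 0.31 ± 0.0371 (SD, n = 3) lower than that of fbf-2, in that order on 5 of 6 arrays, and the gap changed with the dyes. With the mutant in Cy5 the means were -0.85 for fbf-1 and -0.23 for fbf-2, and with the mutant in Cy3 they were -0.49 and -0.48. Cross-reaction between the 2 probes was not tested.

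The probes of puf-9 and puf-12 did not show the decrease of puf-3, puf-7, puf-8 and puf-11. PUF-9 lowers expression of the timing factor HBL-1 in hypodermal cells. Its probe (W06B11.2, A_12_P119580) gave -0.01, 0.16 and 0.01, with a mean of 0.05 ± 0.0933 (SD, n = 3, adjusted p = 0.308). The 95% confidence interval of the log2 ratio was -0.05 to 0.15, and the sign was the same on 4 of 6 arrays. Normalised log2 signals were 7.08, 6.93 and 6.99 in wild type and 7.064, 7.088 and 6.999 in the mutant, which overlap.

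The puf-9 probe was dim. Its spots read between 140 and 152.5 units in Cy3, where the local background was 56.5 to 62.5, and between 208.5 and 292.5 in Cy5, where the local background was 133 to 139. Added background offset draws such ratios towards 0. With an offset of 0 the ratio was 0.09 and was not past the threshold either.

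The probe of puf-12 (ZK945.3.2, A_12_P102752) gave 0.21, 0.08 and 0.10. The mean was 0.13 ± 0.0706 (SD, n = 3), or 1.095-fold higher, with the same sign on 6 of 6 arrays and an adjusted p of 0.0156. Normalised log2 signals lay between 12.5 and 12.6 in wild type and between 12.67 and 12.69 in the mutant, without overlap. This small difference depended on the processing. It turned to -0.14 with median centring of each array in place of loess, and its adjusted p was at or over 0.05 under 5 of 17 alternatives, including the omission of replicate 1 (ratio 0.09, adjusted p = 0.152). No direction is therefore given for puf-12.

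**Figure D2:**
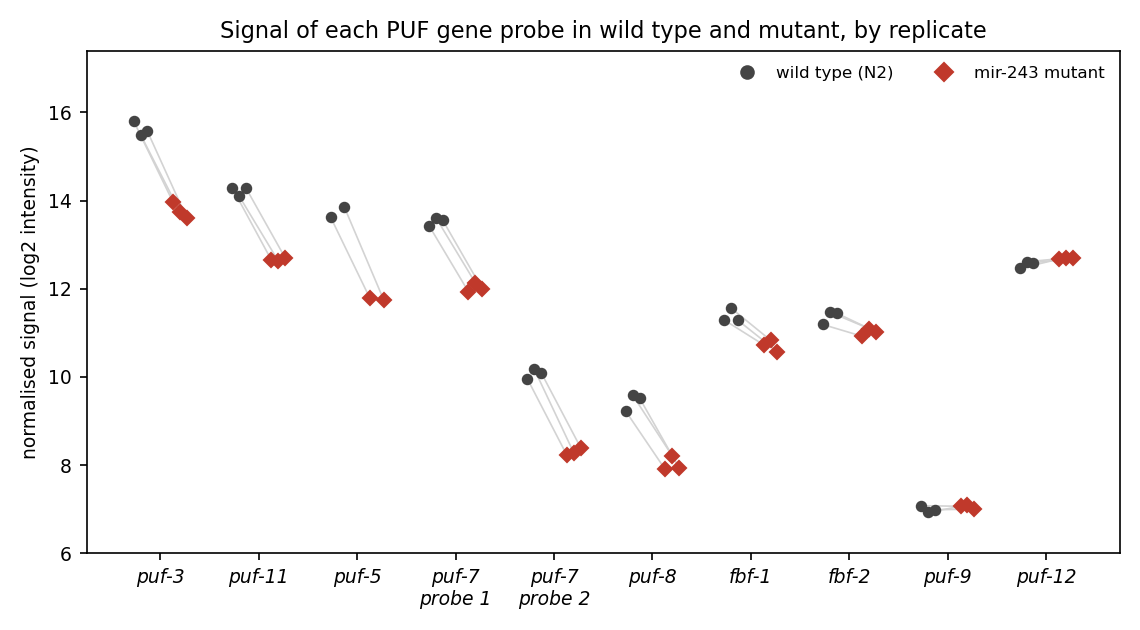
Normalised signal (log2 intensity, vertical axis) of each PUF probe in wild type (circles) and mutant (diamonds), with a line joining the samples of a replicate. The genotypes of puf-3, puf-11, puf-7, puf-8, fbf-1, fbf-2 and puf-12 are separate, and those of puf-9 overlap. For puf-5 only replicates 1 and 3 are shown, and heights of different probes cannot be set against each other.

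The 2 pseudogenes of the family were looked at after the values were known. The probe of puf-4 did not rise well above background in mutant or wild type on any of the 6 arrays, so no ratio is given. The probe of puf-10 (Y48G1BL.3) did so on all of them, gave -1.40 ± 0.0398 on the log2 scale (SD, n = 3, adjusted p = 3.07e-12), and was called lower. Which transcript this probe binds was not tested.

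Tested member probes, fbf-1 and fbf-2 were ranked from the lowest ratio. The order was puf-3, the second puf-7 probe, puf-11, the first puf-7 probe, puf-8, fbf-1, fbf-2, puf-9 and puf-12. The probe of puf-5 was not tested and so not ranked, but at -1.98 (n = 2 replicates) it read lower than puf-3. The pseudogene probe of puf-10 (-1.40) was not ranked either. Among the first 5 ranked probes no neighbours differed by more than 2 SD of their replicate differences. The difference between puf-3 and the second puf-7 probe was -0.08 ± 0.209 (SD, n = 3), with 4 of 6 arrays in that order. Between puf-11 and the first puf-7 probe it was 0.06 ± 0.0754 in size, and between that probe and puf-8 it was -0.09 ± 0.102. Over the wider distance from puf-3 to puf-8 it was -0.43 ± 0.0794, with the order kept on 6 of 6 arrays.

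The steps from puf-8 to fbf-1, from fbf-1 to fbf-2 and from fbf-2 to puf-9 exceeded 2 SD of their replicate differences. That from fbf-1 to fbf-2, given above, changed with the dyes. The ratio of puf-8 was 0.76 ± 0.111 (SD, n = 3) lower than that of fbf-1, and the ratio of fbf-2 was 0.41 ± 0.142 lower than that of puf-9, both on 6 of 6 arrays. The ratios of puf-9 and puf-12 differed by -0.08 ± 0.152, which is within 2 SD. The 2 SD rule describes spread and is not a test. In all, 36 pairs of probes were compared and 28 kept 1 order on 6 of 6 arrays. Each exact sign-flip permutation test is limited to p = 0.25 by the 3 replicates, and the smallest adjusted value over the 36 pairs was 0.273. With so few replicates the permutation test cannot separate any pair.

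The genes whose 6 array ratios lay closest to each member were found by the root mean square difference of log2 ratios over the 6 arrays. Closest to puf-3 were chs-1, the chitin synthase of the eggshell (difference 0.0737), trcs-1 (0.109) and spn-4, a maternal RNA-binding protein (0.112). Closest to puf-11 were dod-3 (0.0488), cup-15 (0.0911) and the cyclin B gene cyb-1 (0.105). For the first puf-7 probe they were mex-3 (0.0697), C30F12.4 (0.0706) and ima-2, an importin alpha (0.0864). For the second they were the Wnt gene mom-2 (0.0909), the eggshell gene cbd-1 (0.0991) and T01D3.6 (0.108). For puf-8 they were pch-2 (0.0738), the kinase gene pig-1 (0.0763) and F59A3.2 (0.0847). Near a ratio of 0 many probes lie close together, and the closest to puf-9 (F20A1.6, ZK470.2 and ndub-3) and to puf-12 (fbxa-10, nra-3 and ksr-1) were within 0.0461.

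Genes that act with the PUF proteins were examined next. Of 10 listed partners, 9 were tested with 13 probes. All 13 probes were lower in the mutant by adjusted p, 4 of them were called, and the median log2 ratio was -0.80. Of all tested probes, 41.3% were lower by adjusted p and 7.1% were called lower. The same shares apply to the lists below. Whether acting with PUF proteins has a part in these counts was not tested. The called genes were gld-3, nos-1 and mex-3. The Bicaudal-C homologue gld-3, which binds FBF, had a ratio of -1.83 ± 0.0264 (SD, n = 3) at 1 probe and of -0.88 ± 0.0223 at the other, which was not called. The Nanos homologue nos-1 had -1.56 ± 0.115. The KH-domain gene mex-3, whose product acts with PUF-8 in germ cells, had -1.49 ± 0.0350 and -1.16 ± 0.0736. The number of called partner probes rose to 9 with the processed signals of the scanner or the deposited ratios, and to 7 with an offset of 0.

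Of 15 genes listed as PUF targets, most of them known for FBF, 14 were tested. By adjusted p, 11 were lower and 2 were higher. The 4 called genes were all lower, and the list's median was -0.57. They were fem-3, a sex-determination gene repressed by FBF (-1.44 ± 0.0836, SD, n = 3), the synaptonemal complex genes syp-2 (-1.35 ± 0.0493) and syp-3 (-1.33 ± 0.0402), and the Notch receptor gene glp-1 (-1.14 ± 0.164). The last is a target of PUF-5, PUF-6 and PUF-7 in oocytes, and was named after its value was seen. The genes syp-2, syp-3, glp-1 and him-3 also belong to the germ line markers below.

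The 2 targets that were higher were also named after their values were seen. They are 2 of 14 tested targets, whereas 42.3% of all probes were higher by adjusted p. The Ras gene let-60, a target of PUF-8, stood at 0.38 ± 0.108 on the log2 scale (SD, n = 3, adjusted p = 6.58e-06). The zinc-finger gene hbl-1, a target of PUF-9, had 0.26 ± 0.104 (adjusted p = 0.000201). Both differences were below 2-fold, both had the same sign on 6 of 6 arrays, and neither was called. Whether PUF-8 or PUF-9 had a part in either difference was not tested.

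Of 7 genes for subunits of the CCR4-NOT deadenylase with a probe, 0 were called by limma, with or without adjustment of p, while 6 were lower by adjusted p. Their median ratio was -0.41. The deposited ratios and the processed signals each gave 2 calls and an offset of 0 gave 1. The lowest ratio was -0.79 and the highest -0.07.

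Of the lists for the members that did not fall, the nucleolar list was mostly lower by less than 2-fold and the heterochronic list was mixed. Of 11 tested nucleolar ribosome biogenesis genes, 0 were called by limma, with or without adjustment of p, and 9 were lower by adjusted p (median -0.47, range -0.85 to 0.08). The deposited ratios and the processed signals each gave 3 calls and an offset of 0 gave 1. Of 7 tested heterochronic genes, which time larval development, 3 were called. The RNA-binding TRIM protein gene lin-41, which also acts in oocytes, was lower (-1.72 ± 0.0633, SD, n = 3), while dre-1 (1.52 ± 0.0647) and the larval-to-adult factor lin-29 (1.50 ± 0.0392) were higher.

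**Figure D3:**
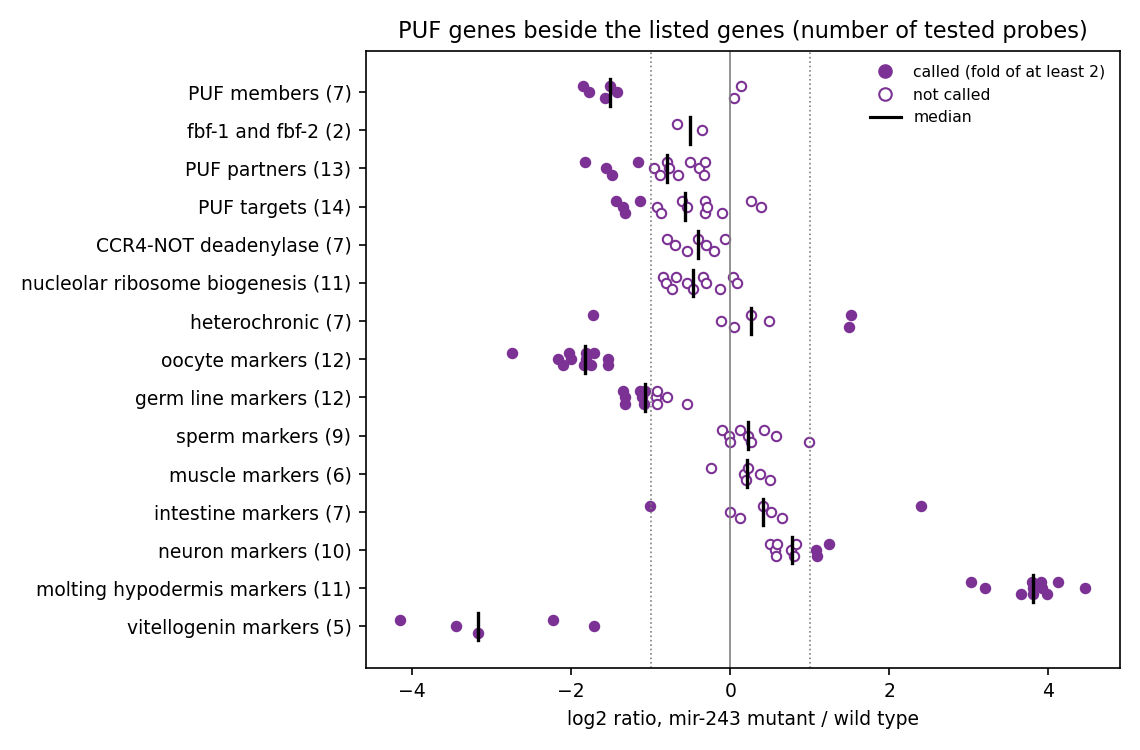
Log2 ratio of mutant over wild type (horizontal axis) of each tested probe of the PUF members, of fbf-1 and fbf-2, and of each gene list (rows, number of tested probes in brackets), with called probes filled, others open and the median as a black bar. The 5 called PUF probes lie from -1.85 to -1.42, next to the oocyte markers (median -1.82), while fbf-1 and fbf-2 lie among the less reduced germ line markers (median -1.07) and beyond.

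Markers of oocytes and of other cells moved on the same arrays, and their part in the PUF ratios was not tested. All 12 tested probes of 13 listed oocyte markers were called lower, with ratios from -2.74 to -1.53. They include the eggshell-layer gene perm-2 (-2.74 ± 0.0821, SD, n = 3), the yolk receptor gene rme-2 (-2.17 ± 0.110) and the eggshell proteoglycan gene cpg-1 (-2.11 ± 0.0679). Together these probes held 0.681% to 0.996% of the array's normalised signal in wild type and 0.148% to 0.220% in the mutant. Every one of them remained clearly over background in the mutant on 6 of 6 arrays. The ratios of puf-3, puf-11 and the second puf-7 probe lie within the range of the oocyte markers.

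The general germ line markers were lower by less. All 12 had an adjusted p under 0.05, 7 were called, and ratios ran from -1.35 to -0.55, with syp-2, syp-3 and zim-2 the lowest. Their summed share was 0.154% to 0.243% of the signal in wild type and 0.0841% to 0.128% in the mutant. The first puf-7 probe and puf-8 lie between the ranges of the 2 marker lists, fbf-1 lies within that of the germ line markers, and fbf-2 lies above it. Of 9 sperm markers, 0 were called by limma, while 6 were higher by adjusted p (and by unadjusted p), with a median of 0.22. The processed signals and the deposited ratios each gave 2 higher calls and a median of 0.59, and an offset of 0 gave 1 call and a median of 0.46. With the mutant in Cy3 only, with the slide as a block and without replicate 1 there was also 1 higher call. Among them try-5 was at background in wild type on 6 of 6 arrays.

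Somatic lists moved in both directions. All 11 probes of 10 molting hypodermis genes were called higher (median 3.81), including the collagen genes dpy-2 (4.47 ± 0.198, SD, n = 3) and dpy-7 (4.12 ± 0.0736) and the matrix gene noah-1 (3.98 ± 0.0751). Their share of signal was 0.0206% to 0.0274% in wild type and 0.312% to 0.367% in the mutant. On the same arrays puf-9, a gene of the hypodermis, had a ratio of 0.05. Its probe was dim, and the added offset draws such a ratio towards 0 (0.09 with an offset of 0). Whether puf-9 RNA changed in the hypodermis was not tested. All 5 tested vitellogenin probes, which report the yolk proteins made by the intestine, were called lower (median -3.17), with vit-1 at -4.15, vit-5 at -3.44 and vit-4 at -3.17.

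The other somatic lists moved less. Muscle markers had 0 of 6 probes called by limma, with 1 lower and 5 higher by adjusted and by unadjusted p, and a median of 0.21. Intestine markers had a median of 0.41, with pgp-1 called higher (2.40) and ges-1 called lower (-1.01). That call was lost without replicate 1, with the mutant in Cy3 only, with normexp fitted on all spots and with no background correction. Neuron markers were higher by adjusted p at all 10 probes and called at 3 (ric-4, rab-3 and snt-1), with a median of 0.78. With median centring 0 of them were called, and with the mutant in Cy3 only 1 was. Both genotypes are labelled young adult. Whether they were of the same exact stage was not tested.

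**Figure D4:**
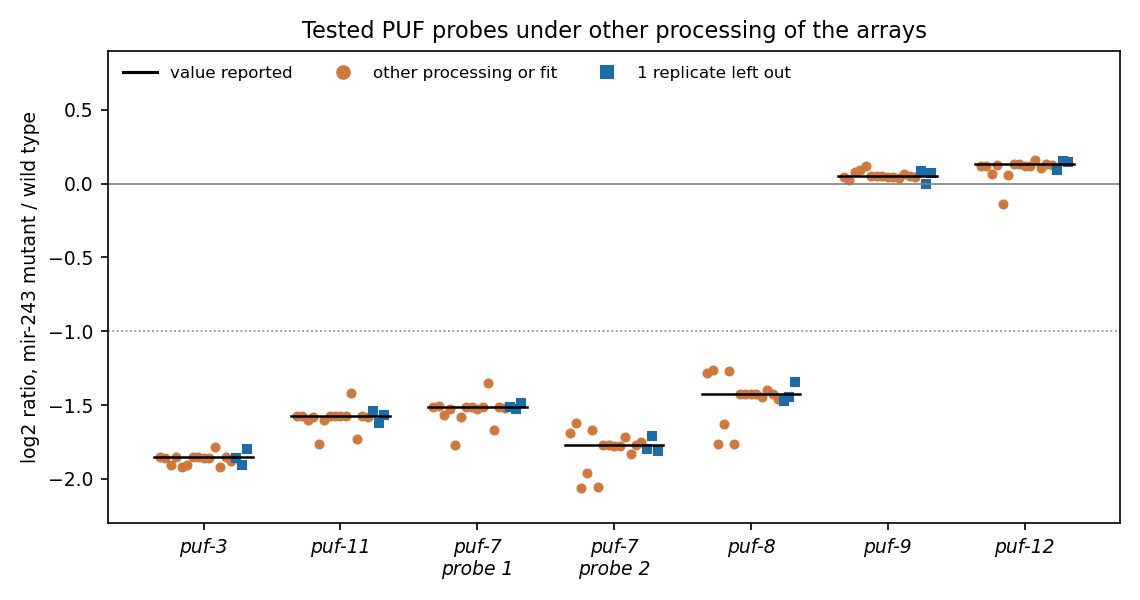
Log2 ratio of mutant over wild type (vertical axis) of each tested PUF probe (horizontal axis) as reported (black line), under other processing or fits (circles) and with 1 replicate left out (squares). The 5 probes called lower stay below the dotted line at -1 under every alternative shown, while puf-9 and puf-12 cross 0 at 1 alternative each.

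The 5 called probes kept their call under all 17 alternatives of processing, normalisation, dye orientation and replicates. Their log2 ratios ranged from -1.92 to -1.79 for puf-3, from -1.76 to -1.42 for puf-11, from -1.77 to -1.35 and from -2.06 to -1.62 for the puf-7 probes, and from -1.76 to -1.26 for puf-8. The share of all probes called lower moved over the same alternatives from 5.82% to 13.8%.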

How the data were processed

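Total RNA of young-adult N2 and mir-243(n4759) worms was isolated, reverse-transcribed from random primers and labelled in both dyes. Per the file headers, arrays were read with Agilent Feature Extraction 10.5.1.1, whereas the labels name version 8.5.1.1. The deposited values used were the median pixel intensity per spot and per surrounding background in either channel, not normalised, with quality marks of 0 or 1 for outliers, saturation and signal above background. As alternatives, the processed intensity of each channel, corrected and dye-normalised by the scanner software and deposited with its log10 ratio of Cy5 over Cy3, and the log2 ratio deposited by the authors for each probe were used. The deposited log2 ratio lay within 0.001 of the scanner's log10 ratio, converted to log2, for 88.0% to 90.8% of gene probes on each array, and its column medians were between -0.11 and 0.07. The authors' methods name background subtraction, LOWESS and dye-swap analysis, with a fold of at least 2 and a p over 3 biological replicates, but not the test. The genome build of the probes is not given in the sources used here, so no positions are printed, and no probe or protein sequence was used.

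Background was corrected with normexp (offset 50, fitted on spots without outlier marks) in limma 3.58.1 under R 4.3.3 (files were read with the package data.table, version 1.17.8). Ratios were normalised by loess within each array. Spots with an outlier mark on the spot or its background were left out, spots of a probe were averaged, ratios were turned to mutant over wild type, and both dye orientations of a replicate, which hold the same RNA, were averaged. A probe was tested if at least 50% of its spots were well above background on at least 4 of 6 arrays in 1 genotype and it had a value in all 3 replicates. That left 16272 of 20401 gene probes, and 540 detected probes lacked a replicate. Log2 ratios were tested with lmFit and eBayes, and scripts were tested on simulated data. Fold changes are on the scale of signal plus 50, which draws dim probes towards 0. Normalised signals per genotype come from Aquantile scaling between arrays.

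Gene names were matched by sequence name to RefSeq genes of WBcel235 (19057 gene probes matched). All members and their probes were named, with fbf-1 and fbf-2. Of each list up to 3 called genes per direction with the largest change were named, and for each member probe the 3 named probes with the closest array ratios. Members, lists and tests were chosen with earlier results of these data known. Replicates are separate biological samples by the labels. The number of arrays limits the precision.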

Additional observations from a re-analysis of the deposited data

Results flagged for a closer look

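On 1 array the log2 ratio of puf-12 stood apart from the other 5. The replicate 1 array with the mutant in Cy5 gave 0.28, whereas the others lay between 0.05 and 0.14. On that array 1 of the 2 spots of the probe was used. Of 21 measures examined in this way (7 member probes and the medians of 14 lists), 1 stood apart, and chance alone gives about 1 in 20. Without replicate 1 the ratio of puf-12 was 0.09 (limma adjusted p = 0.152).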

How the results depend on the processing

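Over 17 alternatives, the number of member probes called was 5 or 6 and the number differing by adjusted p was 5 to 7. It was 5 under each omission of a replicate for the calls, and 5 to 6 for the probes that differed. The calls rose to 6 where puf-5 also had a value. The puf-12 ratio reversed to -0.14 with median centring (limma adjusted p = 0.0428, range over alternatives 0.00879 to 0.289). Leaving out 1 replicate moved it between 0.09 and 0.16, and moved puf-9 between -0.00063 (without replicate 2) and 0.09 (0.086, without replicate 1), so that puf-9 has no direction. The causes were not tested. Of 34 partner, target and CCR4-NOT probes, 8 were called, 17 with the scanner's processed signals, 17 with the deposited ratios, and 8 to 9 with a replicate left out. Fitting 6 arrays with the replicate as a random block (consensus correlation 0.0863) changed no member call. Ignoring background marks was an alternative chosen after seeing the data. Dim probes such as puf-8 and puf-9 are limited by signal over background.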
